A study of Homo sapiens with 9 samples.

Results

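The genes examined here encode the proteins of the cytoplasmic ribosome. They were chosen by name: an ARID peak was taken as a member when the authors' nearest gene was RPL or RPS followed by digits and at most 1 of the letters A, X, Y or L, or was RPLP0, RPLP1, RPLP2 or RPSA. The rule used no measured value. It found 165 of the 34575 peaks in the 3 ARID lists, and it matched 81 of the 20136 protein-coding gene names in the Gencode annotation. Of these genes, 43 encode proteins of the large (60S) subunit, 31 encode proteins of the small (40S) subunit, 3 encode the stalk proteins and 4 are paralogs of such genes.

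The study used ChIP-seq to map where subunits of SWI/SNF, a chromatin remodeling complex, lay in HepG2 cells, an established line from a human liver tumour, with no treatment named in the labels. Chromatin was fixed with formaldehyde, digested with micrococcal nuclease and immunoprecipitated with an antibody against ARID1A, ARID1B, ARID2 or SNF5. There were 2 replicate libraries for each of these groups and 1 input library, 9 libraries in all. The authors merged both replicates before they called peaks, so each subunit is represented by 1 list and no value below has a replicate error. The input was not used here. The lists hold no read counts, so the depth behind them is unknown, and a difference between subunits cannot be told apart from one in antibody or sequencing depth. A single cell line was used, and no ribosomal protein mRNA was measured in these files. As a check of the cell type, at least 1 ARID peak lay within 1000 bp of a start for 8 of 10 liver marker genes (80.0%) and for 1 of 7 marker genes of blood, muscle and neurons (14.3%). The share over all protein-coding genes was 44.7%. The marker genes are few and binding is not expression, so these counts do not settle the cell type.

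The ribosome is built from ribosomal RNA and a set of proteins needed in equal amounts, and their genes are among the most strongly transcribed in dividing cells. Their mRNAs typically begin with a cytosine followed by an unbroken run of pyrimidines, the terminal oligopyrimidine or TOP motif, through which growth signals control their translation. ARID1A and ARID1B are alternative subunits of the BAF form of SWI/SNF, ARID2 belongs to the PBAF form, and SNF5 (also called BAF47 or SMARCB1) is a core subunit of both.

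Start regions of members at both ends of the range are shown first, because the peaks described below crowd at these positions. The sequences are from RefSeq on the GRCh38.p14 build and run from 40 bases before the RefSeq start to 15 bases after it, in the direction of transcription. Where a gene has several annotated starts, as RPS27A has, the RefSeq start need not be the canonical start used for distances below. Capitals mark the tract nearest to the start that has a C followed by at least 4 pyrimidines and begins within 10 bases of it. A tract was taken to begin at the first such C of its run. The first 8 genes had a peak of all 3 ARID lists within 1000 bp of a start and an entry in the RefSeq table.
RPL10A (chr6:35468361-35468415, plus strand): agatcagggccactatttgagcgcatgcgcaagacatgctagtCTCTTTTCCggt
RPL13A (chr19:49487568-49487622, plus strand): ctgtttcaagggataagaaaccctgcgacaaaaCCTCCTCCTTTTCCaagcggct
RPL19 (chr17:39200243-39200297, plus strand): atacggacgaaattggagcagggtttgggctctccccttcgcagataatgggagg
RPL31 (chr2:101002249-101002303, plus strand): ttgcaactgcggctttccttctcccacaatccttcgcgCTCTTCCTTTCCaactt
RPS7 (chr2:3575220-3575274, plus strand): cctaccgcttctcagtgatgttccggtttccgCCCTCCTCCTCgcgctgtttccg
RPS16 (chr19:39435935-39435989, minus strand): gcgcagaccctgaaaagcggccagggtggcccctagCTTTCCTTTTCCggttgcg
RPS25 (chr11:119018329-119018383, minus strand): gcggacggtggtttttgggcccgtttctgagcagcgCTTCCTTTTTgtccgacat
RPS27A (chr2:55231863-55231917, plus strand): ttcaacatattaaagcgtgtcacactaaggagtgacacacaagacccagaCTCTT
The next 6 genes had an entry and no ARID peak within that distance.
RPS14 (chr5:150449725-150449779, minus strand): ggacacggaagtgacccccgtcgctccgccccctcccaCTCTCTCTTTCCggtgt
RPL32 (chr3:12841551-12841605, minus strand): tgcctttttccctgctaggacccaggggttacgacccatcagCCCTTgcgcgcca
RPL36A (chrX:101390971-101391025, plus strand): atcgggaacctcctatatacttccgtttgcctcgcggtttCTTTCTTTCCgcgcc
RPL39 (chrX:119791616-119791670, minus strand): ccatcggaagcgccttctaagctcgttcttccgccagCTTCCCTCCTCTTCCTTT
RPS4X (chrX:72277234-72277288, minus strand): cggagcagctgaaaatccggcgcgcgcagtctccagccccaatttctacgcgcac
RPL10L (chr14:46651767-46651821, minus strand): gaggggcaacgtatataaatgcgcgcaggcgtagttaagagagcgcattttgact
A tract was marked in 7 of the 8 genes of the first set, with none in RPL19, and in 4 of the second, with none in RPS4X and RPL10L. The run of pyrimidines at RPL19 begins just beyond the limit of 10 bases. A later C of that run lies within the limit. The motif counts below allow any C, and by that rule all 8 genes of the first set have a tract. The marked tracts ran from 5 bases at RPS27A to 14 at RPL13A in the first set, and from 5 bases at RPL32 to 18 at RPL39 in the second. The tracts of RPS27A and RPL39 reached the end of the stretch shown and may run on. The sets were picked by their peaks, and so few sequences describe these genes only.

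At 4 members the peaks of all 3 lists shared DNA that lay outside every annotated exon. These stretches are shown from the hg19 (GRCh37) sequence used for the peaks, read along the gene. Each is the longest part outside exons of the interval that all 3 ARIDs had in common there. The whole shared interval spanned 179 bp at RPL19 and 224 bp at RPS27A. Shared intervals at RPL13A (62 bp) and RPL31 (96 bp) lay wholly in annotated exons and are not shown. Capitals mark the SP1 core (GGGCGG on either strand), the only one of 4 searched motifs that occurred.
RPL19 (chr17:37356387-37356535, plus strand): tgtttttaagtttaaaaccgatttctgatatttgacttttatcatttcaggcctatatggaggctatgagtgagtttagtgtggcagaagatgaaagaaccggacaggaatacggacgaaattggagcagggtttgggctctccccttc
RPL23 (chr17:37010082-37010146, minus strand): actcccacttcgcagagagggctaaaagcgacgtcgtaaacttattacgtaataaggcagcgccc
RPS7 (chr2:3622824-3622849, plus strand): gtgatgttccggtttCCGCCCtcctc
RPS27A (chr2:55459491-55459567, plus strand): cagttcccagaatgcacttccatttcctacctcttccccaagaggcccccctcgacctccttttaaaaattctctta
The stretch at RPL19 spanned 149 bp and ended at the base before its start. The stretch at RPS7, of 26 bp, also ended there and continued into the first exon, making a shared interval of 40 bp. The stretch at RPL23 lay from -172 to -108 bp relative to the canonical start, and that at RPS27A from -333 to -257 bp.

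Peaks of ribosomal protein genes were not spread evenly over the 3 lists. The ARID1A list held 77 of them, 0.599% of its 12852 peaks. The ARID2 list held 73, or 0.562% of 12995. The ARID1B list held 15, or 0.172% of 8728, with a Wilson 95% interval of 0.104% to 0.283%, below the interval of 0.480% to 0.748% for ARID1A and that of 0.447% to 0.706% for ARID2. All intervals given here are Wilson 95% intervals and cover counting error only. The lists also differed in class, with promoter peaks making up 72.6% of the ARID1A list, 67.0% of the ARID2 list and 37.9% of the ARID1B list. Most member peaks were promoter peaks. Among promoter peaks alone, members were 69 of 9333 for ARID1A, 63 of 8705 for ARID2 and 12 of 3306 for ARID1B. The part of class in the difference between lists was not tested. Peaks of 1 list are not replicates, so no test was made between lists.

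**Figure D1:**
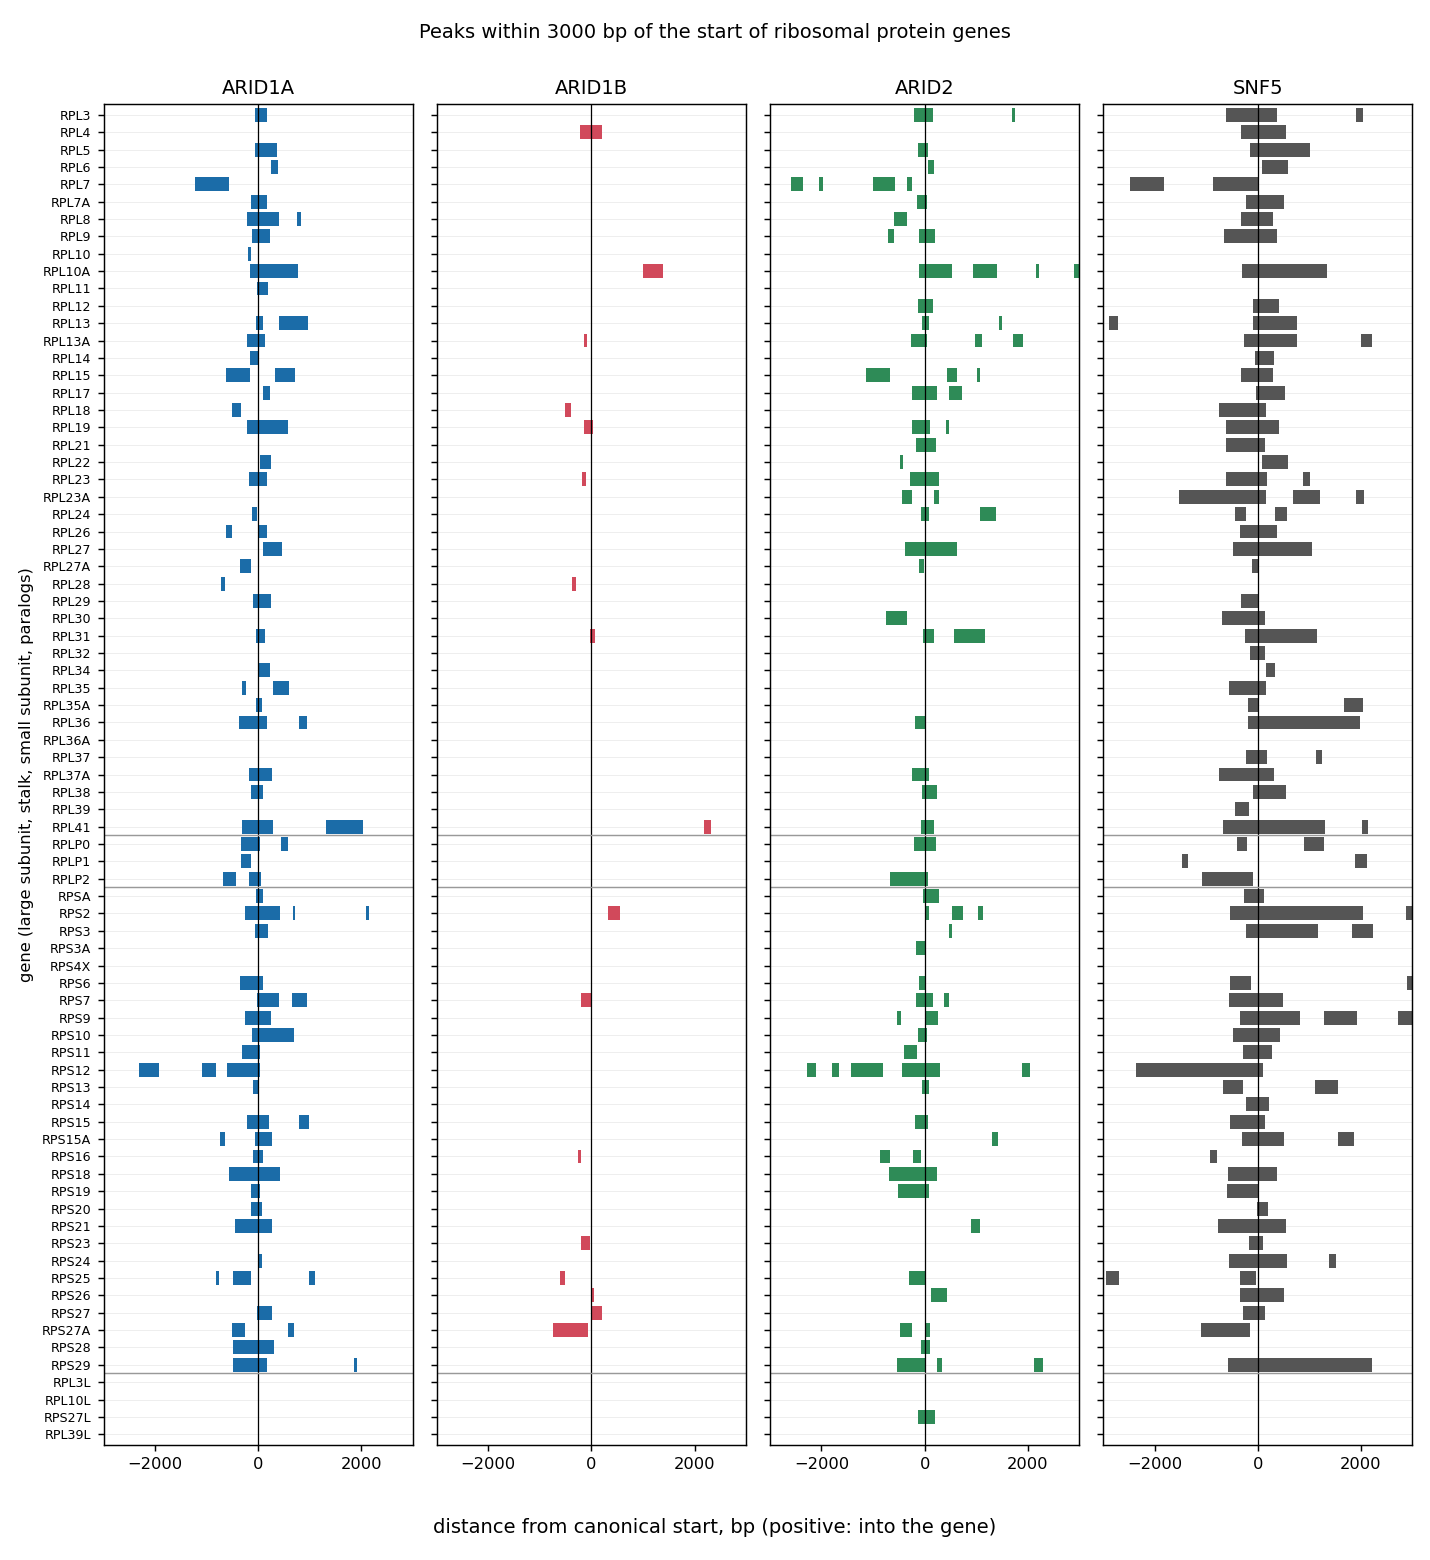
Peaks of each list (coloured bars, to scale) within 3000 bp of the canonical start of 77 of the ribosomal protein genes, 1 row per gene, with distance in bp on the x axis, positive into the gene, and grey lines between role groups. ARID1A, ARID2 and SNF5 peaks lie close to the start in most rows, and ARID1B peaks appear in few.

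An assigned peak, meaning one whose nearest gene was the member, was found for 70 of the 81 genes in at least 1 ARID list (86.4%, against 40.8% of all protein-coding genes). ARID1A peaks were assigned to 60 genes (74.1%, against 31.1%). ARID2 peaks were assigned to 47 (58.0%, against 27.7%). ARID1B peaks were assigned to 15 (18.5%, against 16.0%), a share near the background. Peaks of all 3 lists were assigned to 7 genes (8.64%, against 9.42%), also near it, and no ARID peak was assigned to 11 genes (13.6%, against 59.2%). With the widest 50% of each list, 36 genes had ARID1A, 8 had ARID1B, 3 had all ARIDs and 30 had none. Over all peaks the most common pattern was ARID1A with ARID2 and without ARID1B, found at 32 genes (39.5%, interval 29.6% to 50.4%, against 11.4%). Counted by number of peaks, 22 genes had 1, 26 had 2, 11 had 3, 6 had 4 and 5 had more. The background of all protein-coding genes, here and below, was not limited to genes expressed in these cells. The authors reported very little ARID binding at transcripts that were not expressed. The part of expression in these contrasts was not tested.

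Nearest-gene assignment gives each peak to a single gene, and ribosomal protein genes often host small nucleolar RNAs or share a promoter region with a neighbour. Counting instead any peak within 1000 bp of an annotated start, 16 of 85 ARID1A peaks, 3 of 16 ARID1B peaks and 16 of 82 ARID2 peaks belonged to another name. With this count, 71 of 81 genes had an ARID peak (87.7%, against 44.7% of protein-coding genes). ARID1A was near 62 (76.5%, interval 66.2% to 84.4%, against 37.4%), ARID2 near 54 (66.7%, against 32.9%) and ARID1B near 16 (19.8%, interval 12.5% to 29.7%, against 13.8%). All 3 were near 10 genes (12.3%, against 10.3%) and none was near 10 (12.3%, against 55.3%). SNF5 was near 65 (80.2%, against 44.0%). The 60S genes and the 40S genes had like shares for any ARID, 39 of 43 (90.7%) and 28 of 31 (90.3%).

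Most coding genes have no ARID peak, so the lists were also compared among genes that had at least 1. Among the 71 such members, 87.3% had ARID1A, 76.1% had ARID2 and 22.5% had ARID1B (interval 14.4% to 33.5%). Among 9007 such protein-coding genes the shares were 83.7%, 73.7% and 30.9%, and each of these lay within the members' interval. The combinations gave a different picture for 1 pattern. ARID1A with ARID2 and without ARID1B was found at 37 of the 71 members (52.1%, interval 40.7% to 63.3%), against 36.9% of the 9007 genes, a share below the interval. All 3 ARIDs were near 14.1% of the 71 (interval 7.83% to 24.0%, against 22.9%).

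Other genes of protein synthesis give a second background. Of 21 translation factors and related genes, listed for their role, 19 had an ARID peak near a start (90.5%) and 8 had ARID1B (38.1%, interval 20.8% to 59.1%). Of 78 genes for the mitochondrial ribosome, 60 had an ARID peak (76.9%, interval 66.4% to 84.9%) and 18 had ARID1B (23.1%). The intervals of these groups overlapped those of the cytoplasmic ribosomal protein genes for every list.

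**Figure D2:**
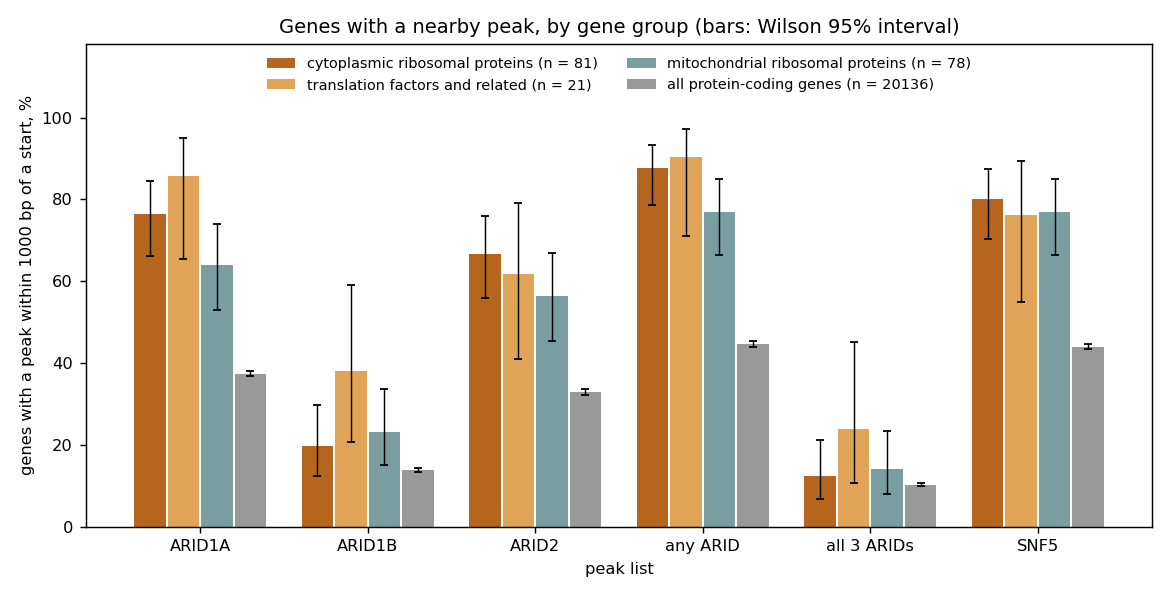
Share of genes, in percent, with a peak within 1000 bp of an annotated start, by peak list (x axis) for 4 gene groups, with lines for Wilson 95% intervals. The 3 groups of protein synthesis genes stand above all protein-coding genes for ARID1A, ARID2, any ARID and SNF5, and their intervals overlap each other.

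The deposited class placed most member peaks at promoters. It was promoter for 69 of 77 ARID1A peaks (89.6%, interval 80.8% to 94.6%, against 72.6% of the whole list). It was promoter for 12 of 15 ARID1B peaks (80.0%, interval 54.8% to 93.0%, against 37.9%). It was promoter for 63 of 73 ARID2 peaks (86.3%, interval 76.6% to 92.4%, against 67.0%). In each list the share over all peaks lay below the members' interval. Assignment by nearest gene selects on position to some degree, so this is a description of the peaks that carry these names.

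Within the promoter class the member peaks also lay nearer to a start. The median deposited distance, which runs from the midpoint of the peak, was 51.0 bp for ARID1A members against 115 bp for all ARID1A promoter peaks. It was 54.5 bp against 170 bp for ARID1B and 52.0 bp against 162 bp for ARID2. Midpoints fell on both sides of the canonical start, with 31 of 69 ARID1A, 8 of 12 ARID1B and 27 of 63 ARID2 promoter peaks upstream of it.

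Counting genes, an ARID1A peak covered the canonical start itself at 42 of 81 members (51.9%, against 18.5% of 19856 protein-coding genes). An ARID2 peak covered it at 35 (43.2%, against 12.1%) and an SNF5 peak at 49 (60.5%, against 27.9%). An ARID1B peak covered it at 5 (6.17%, interval 2.67% to 13.6%, against 2.94%), namely RPL4, RPL19, RPL31, RPS7 and RPS27. Peaks of both ARID1A and ARID2 covered it at 27 members (33.3%, against 7.54%), and at 21 of these an SNF5 peak did as well. At RPL19, RPL31 and RPS7 the start lay in a peak of all 3 ARID lists.

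Only 21 of the 165 member peaks lay outside the promoter class, and they belonged to 9 genes. RPS29, RPL10A and RPS12 held 15 of the 21. The farthest ARID1A peak was a distal peak 3748 bp from RPL10A, which encodes a 60S protein. The farthest ARID1B peak was an intronic peak 24637 bp from the start of RPL37A, and the farthest ARID2 peak was a distal peak 9147 bp from RPL5. None of these 3 overlapped an SNF5 peak. Of all 21, 10 did (47.6%). The same share over all peaks outside the promoter class was not computed, so this count describes these peaks only.

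SNF5, as the core subunit, was used to see which ARID peaks fell in regions called for the complex as a whole. An SNF5 peak overlapped 53 of 77 ARID1A member peaks (68.8%, interval 57.8% to 78.1%, against 71.3% of all ARID1A peaks). It overlapped 12 of 15 ARID1B member peaks (80.0%, interval 54.8% to 93.0%, against 62.9%) and 47 of 73 ARID2 member peaks (64.4%, interval 52.9% to 74.4%, against 67.2%). The whole-list share lay within the members' interval each time. SNF5 peaks were wider than the ARID peaks, and with a reciprocal overlap of 50% the members' shares were 13.0%, 6.67% and 6.85%. The whole lists were not counted by this rule, so these lower shares cannot be called particular to the members. Within the promoter class the shares were 71.0% against 73.5% for ARID1A and 66.7% against 70.5% for ARID2. For ARID1B it gave 91.7% of 12 peaks against 77.2%, again with the whole-list share inside the interval of 64.6% to 98.5%.

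Another ARID overlapped 42 of 77 ARID1A member peaks (54.5%, against 47.6%), 9 of 15 ARID1B member peaks (60%, against 40.1%) and 39 of 73 ARID2 member peaks (53.4%, against 46.9%). With a reciprocal overlap of 50% the members' shares were 22.1%, 33.3% and 20.5%, again without a whole-list share by that rule. The partner was mostly ARID2 or ARID1A. ARID2 overlapped 51.9% of ARID1A member peaks (interval 41.0% to 62.7%, against 40.4% of all ARID1A peaks), while ARID1B overlapped 10.4% of them (interval 5.36% to 19.2%, against 20.9%). In the ARID2 list, ARID1A overlapped 52.1% of member peaks (interval 40.8% to 63.1%, against 41.7%, inside the interval). ARID1B overlapped 8.22% of them (interval 3.82% to 16.8%, against 18.1%). Both shares for ARID1B lay below the whole-list share, which was outside the interval each time. Within the promoter class both shares for ARID1B were still lower than those of the lists, but the list shares lay inside the intervals. ARID1B overlapped 11.6% of ARID1A member peaks in that class (interval 5.99% to 21.2%, against 18.6%). It overlapped 7.94% of ARID2 member peaks there (interval 3.44% to 17.3%, against 16.9%). Within that class ARID2 overlapped 55.1% of ARID1A member peaks (interval 43.4% to 66.2%, against 44.9%), again with the list share inside the interval. Where ARID1A and ARID2 peaks both lay near a start, they overlapped at 41 of 47 members (87.2%, interval 74.8% to 94.0%, against 77.2% of 5377 protein-coding genes).

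**Figure D3:**
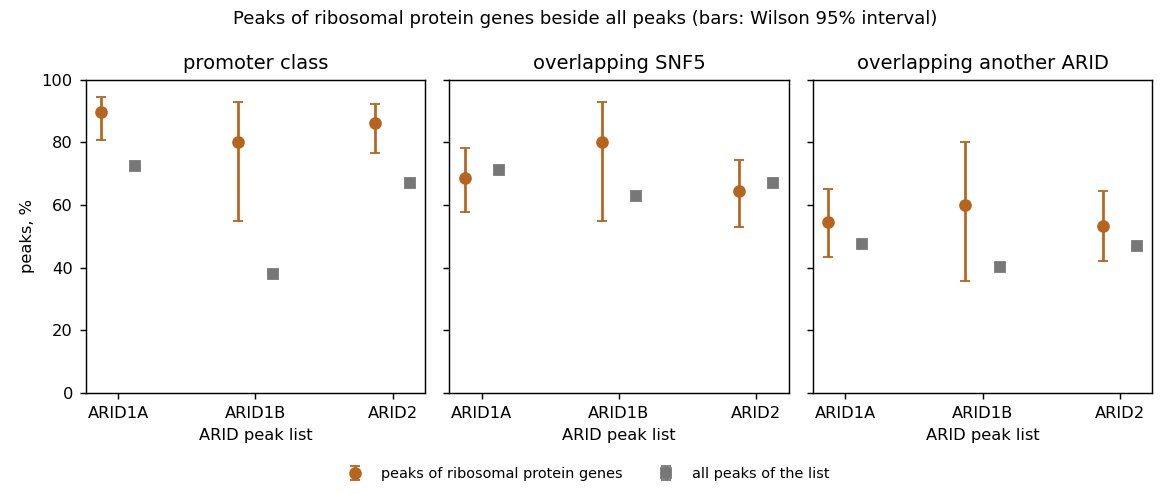
Share of ARID peaks, in percent, in the promoter class, overlapping SNF5 or overlapping another ARID, for the peaks of ribosomal protein genes (circles) and for all peaks of the list (squares), with lines for Wilson 95% intervals. The circles stand above the squares for the promoter class, and the lines of the circles span the squares for overlap with SNF5.

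Peaks shared between ARIDs overlapped SNF5 more often than peaks of a single ARID, at members as in the lists as a whole. For ARID1A members, SNF5 overlapped 37 of 42 shared peaks (88.1%) and 16 of 35 single peaks (45.7%), against 89.0% and 55.1% of all ARID1A peaks. For ARID2 members it overlapped 33 of 39 shared peaks (84.6%) and 14 of 34 single peaks (41.2%), against 88.4% and 48.5%. For ARID1B members it overlapped 9 of 9 shared and 3 of 6 single peaks, against 90.4% and 44.5%.

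Peak width moved with this overlap. ARID1A member peaks that overlapped SNF5 had a median width of 318 bp against 149 bp for those that did not. The medians were 248 and 159 bp for ARID2, and 180 and 76.0 bp for ARID1B, where only 3 peaks did not overlap. Over all peaks the same split gave 266 and 151 bp for ARID1A, 219 and 145 bp for ARID2, and 195 and 120 bp for ARID1B. A wide peak has more room to meet another, and its part in the overlap was not tested.

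**Figure D4:**
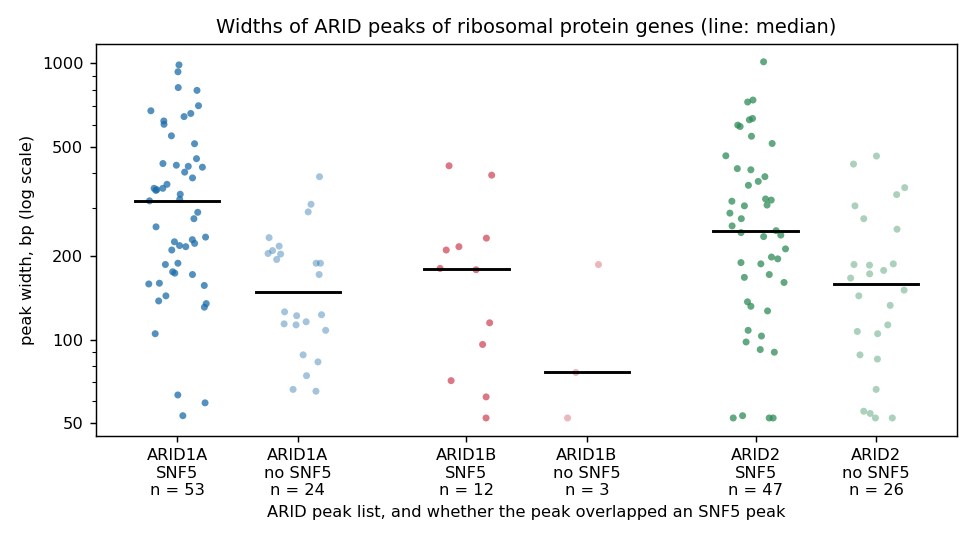
Width in bp, on a log scale, of each ARID peak of a ribosomal protein gene (points), by list and by overlap with an SNF5 peak, with the median as a line. ARID1A peaks overlapping SNF5 reach 988 bp and those without reach 389 bp.

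Widths of the members as a whole were close to those of the lists, with medians of 219 against 218 bp for ARID1A, 179 against 164 bp for ARID1B and 196 against 189 bp for ARID2. The widest ARID1A member peak, 988 bp, lay at RPS18, and the widest ARID2 peak, 1014 bp, at RPL27. The widest ARID1B peak, 426 bp, lay across the start of RPL4, from -214 to 211 bp, where no other ARID had a peak. The narrowest promoter peaks were of 53 bp at RPS24 for ARID1A, of 52 bp at RPS26 for ARID1B and of 52 bp for ARID2 at RPL6, RPL13, RPL19, RPL22 and RPS3.

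SNF5 peaks near ribosomal protein genes had scores close to those of the whole SNF5 list. The score is the whole number that the authors' peak caller gave each SNF5 peak, and the ARID lists carry none. The 85 SNF5 peaks within 1000 bp of a member start had a median score of 21.0 (range 10.0 to 42.0), beside 20 for 9538 SNF5 peaks near protein-coding starts and 19 for the whole list. Their median width was 632 bp, beside 646 bp near protein-coding starts. The highest score, 42, belonged to the peak across the start of RPS14, a 40S gene with no ARID peak, and the lowest, 10, to a peak at an alternative start of RPL23A.

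The genes with peaks of all 3 ARIDs show how differently the lists can be arranged. RPL19, of the 60S subunit, had an ARID1A peak from -222 to 576 bp, an ARID1B peak from -149 to 29 bp and an ARID2 peak from -251 to 110 bp, with a second ARID2 peak of 52 bp inside the gene. All of these touched an SNF5 peak of score 24 that ran from -626 to 415 bp. At RPL31, also of the 60S subunit, the ARID1A peak ran from -47 to 139 bp, the ARID1B peak from -33 to 62 bp and the first ARID2 peak from -35 to 177 bp, so that the ARID1B peak lay within both others. RPL23 was alike, with the 71 bp ARID1B peak from -178 to -108 bp placed at the upstream edge of the ARID1A peak from -172 to 163 bp and within the ARID2 peak from -275 to 269 bp.

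RPL13A encodes a 60S protein known also for its role in silencing inflammatory transcripts. Its ARID1B peak, from -144 to -83 bp, lay inside both an ARID1A peak (-212 to 134 bp) and an ARID2 peak (-262 to 54 bp). The other ARID2 peaks lay in the gene, at 969 to 1112 bp and 1721 to 1907 bp, without a peak of another ARID. At RPS7, a 40S protein that also binds the p53 regulator MDM2, the ARID1B peak (-203 to 13 bp) and the ARID1A peak (-26 to 397 bp) shared only the bases around the start, and the ARID2 peak (-160 to 159 bp) covered that interval.

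At other genes the 3 lists met without a common interval. At RPL10A, ARID1A (-158 to 774 bp) and ARID2 (-100 to 524 bp) covered the start, while the ARID1B peak lay at 1002 to 1395 bp and met a second ARID2 peak at 938 to 1400 bp. An SNF5 peak of 1649 bp and score 30 overlapped them all. At RPS2, of the 40S subunit, the ARID1B peak at 329 to 561 bp overlapped the ARID1A peak at its downstream edge and an ARID2 peak at 540 to 746 bp that the authors assigned to a neighbouring name, and the ARID2 peak assigned to RPS2 itself was 53 bp wide and did not reach it.

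RPS16, RPS25 and RPS27A joined these genes only when peaks were counted by position. The ARID1B peaks near them carried SUPT5H, MIR3656 and CLHC1 as their nearest gene. RPS27A encodes ubiquitin fused to a 40S protein, and its ARID1B peak of 684 bp (-752 to -69 bp) was wider than the ARID1B member peaks at any gene. The ARID1A peak (-517 to -254 bp) and the ARID2 peak (-477 to -243 bp) lay within it. These peaks lay upstream of the canonical RPS27A start, at base 55459824 of chromosome 2. They were still inside the annotated gene, which begins at base 55459039. To which gene they belong cannot be told from position.

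Of the genes with an assigned ARID1B peak, RPL4 and RPS23 had no other ARID within 1000 bp. RPS23, which lies at the decoding centre of the small subunit, had an ARID1B peak from -199 to -19 bp that overlapped an SNF5 peak from -173 to 103 bp with a score of 23. RPS26 had an ARID1B peak of 52 bp just past its start, at 4 to 55 bp, and an ARID2 peak at 133 to 437 bp, which did not overlap. At RPL28, ARID1B (-376 to -301 bp) and ARID1A (-724 to -651 bp) each had 1 narrow peak upstream, with no SNF5 peak near the start.

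The genes with 5 or more assigned peaks were RPS29 with 10, RPL10A and RPS12 with 7 each, and RPL13A and RPS7 with 5 each. RPS12, a 40S gene, carried a run of peaks upstream of its start. ARID1A peaks lay at -2320 to -1917, -1100 to -827 and -612 to 29 bp. ARID2 peaks lay at -2281 to -2110, -1803 to -1667, -1433 to -802 and -433 to 291 bp. A single SNF5 peak of 2454 bp, from -2358 to 95 bp, overlapped all 7 of these, and no ARID1B peak lay there.

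At RPS29, of the 40S subunit, most of the assigned peaks lay far from the canonical start, up to -12297 bp by midpoint, around other annotated starts of the gene. The peaks over the canonical start itself carried other names. An ARID1A peak from -488 to 177 bp was assigned to RN7SL1, a 7SL RNA gene, and an ARID2 peak from -532 to 26 bp to a Metazoa_SRP entry. An SNF5 peak of 2789 bp overlapped both. The count of 10 peaks at RPS29 therefore includes neither of these peaks.

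The stalk proteins, which recruit translation factors to the large subunit, had ARID1A near all 3 genes, ARID2 near 2 and ARID1B near 0. RPLP2 had an ARID1A peak from -183 to 51 bp inside an ARID2 peak of 737 bp. RPLP0 had an ARID2 peak from -204 to 227 bp and an ARID1A peak from -336 to 31 bp that was assigned to PXN-AS1. RPLP1 had 1 ARID1A peak, from -339 to -136 bp, with no SNF5 within 1000 bp.

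Several other members with well-known roles followed the common pattern of ARID1A with ARID2. Others did not, among them RPS14, RPL10, RPL11 and RPL23A. RPS6, the target of S6 kinase, had ARID1A from -350 to 101 bp and ARID2 from -108 to 4 bp, and its SNF5 peak, at -543 to -123 bp, overlapped the ARID1A peak and not the ARID2 peak. RPS3, which lines the mRNA entry channel, had ARID1A over its start from -71 to 184 bp and a 52 bp ARID2 peak at 479 to 530 bp. RPS19, mutated in Diamond-Blackfan anaemia, had ARID1A from -137 to 36 bp within ARID2 from -510 to 87 bp. RPSA, the laminin receptor precursor, had ARID1A from -48 to 89 bp and ARID2 from -26 to 280 bp, with SNF5 of score 15 from -267 to 122 bp.

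Among the 60S genes, RPL5 and RPL11 act together with the 5S RNA in binding MDM2. RPL5 had ARID1A from -60 to 367 bp, ARID2 from -131 to 67 bp and SNF5 from -151 to 1007 bp. RPL11 had ARID1A from -20 to 189 bp and no peak of another list. RPL3, at the peptidyl transferase centre, had ARID1A from -53 to 169 bp within ARID2 from -203 to 170 bp. RPL23A had 2 ARID2 peaks, on either side of its start, at -437 to -242 and 173 to 277 bp, and no ARID1A peak. RPL10, which is added late to the 60S subunit, had a single ARID1A peak of 65 bp and no SNF5.

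The assigned peaks of 16 genes overlapped no SNF5 peak. They included RPL10, RPL11, RPL15, RPL24, RPL28, RPL35, RPLP0, RPLP1, RPS3A, RPS13, RPS16, RPS27A, RPS27L and RPS28. For some of them SNF5 was nonetheless close. At RPL24 an ARID2 peak from -73 to 77 bp lay between SNF5 peaks at -448 to -237 and 333 to 558 bp. At RPS13, ARID1A (-102 to 13 bp) and ARID2 (-55 to 77 bp) lay downstream of an SNF5 peak that ended at -281 bp. By position, 10 of the 71 genes with an ARID peak had no SNF5 peak within 1000 bp of a start (14.1%), near the 14.9% of the 9007 protein-coding genes with an ARID peak.

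The genes with no assigned ARID peak included RPL10L, RPL32, RPL36A, RPL37, RPL39, RPL39L, RPL3L, RPS4X and RPS14. By position, 10 members had no ARID peak within 1000 bp of a start. Of these, 4 had an SNF5 peak near a start, namely RPL32 (-154 to 145 bp, score 29), RPL37 (-236 to 179 bp, score 23), RPS14 (-225 to 209 bp, score 42) and RPL39 (-436 to -171 bp, score 18). At RPL32, RPL37 and RPS14 the SNF5 peak covered the start. The other 6 had no peak of any of the 4 lists (7.41% of 81 members, against 49.3% of all protein-coding genes). SNF5 without an ARID was found near 4.94% of the 81 members, against 5.96% of all protein-coding genes.

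Those without any peak included 3 of the 4 paralogs (interval 30.1% to 95.4%). The share over all protein-coding genes, 49.3%, lay inside this interval, so the count does not set the paralogs apart. The part of tissue use in it was not tested. RPL3L is used in heart and skeletal muscle and RPL10L in testis, and RPL39L is also abundant in testis. RPS27L, a paralog induced by p53, had 1 ARID2 peak across its start, from -135 to 199 bp, without SNF5. RPL36A and RPS4X also had no peak of any list.

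RPL36A and RPS4X are on chromosome X, as are RPL39 and RPL10. Of these 4 genes, 1 had an ARID peak, beside 70 of 77 members on other chromosomes (90.9%). Over all protein-coding genes the same contrast was present, with an ARID peak at 6.57% of 868 genes on chromosome X and at 46.5% of 19268 elsewhere. SNF5 peaks lay near 4.49% and 45.8% of these genes. The members on chromosome X thus stood where the lists as a whole held few peaks. Chromosome 19, which carries more members than any other, had ARID peaks near 12 of 12, beside 45.2% of its 1480 protein-coding genes. SNF5 peaks lay near 8 of these 12. This was not particular to chromosome 19, as ARID peaks lay near every member on several others. Among them were chromosome 17 with 6 of 6, and chromosomes 1 and 11 with 5 of 5 each.

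The start sequences shown above were set against all RefSeq promoters, for the 64 members that had an entry. Each member counted once, by its first listed promoter, while the background kept every listed promoter of every gene. The window ran from 250 bases before the start to 50 after it. A C at the start followed by at least 4 pyrimidines was found in 42 of 64 members (65.6%, interval 53.4% to 76.1%) and in 4.07% of all 35116 promoters. Allowing the tract to begin at any C within 10 bases of the start, also inside a longer run, gave 85.9% and 33.5%. The ETS or GABP core CCGGAAG, on either strand, was found in 34.4% of members and 10.3% of promoters, and the YY1 core ATGGCGG in 18.8% and 5.55%. The SP1 core GGGCGG was found in 56.2% and 45.0%, and TATAAA in 9.38% and 11.5%, and both of these background shares lay within the members' intervals. On the other strand the ETS or GABP core reads CTTCCGG, which holds a C followed by 4 pyrimidines. A match of that strand near the start can therefore count for the tract as well. A match is not a bound site.

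The tract at the start was found in 39 of 58 members with an ARID peak near a start (67.2%, interval 54.4% to 77.9%) and in 3 of 6 without (50%, interval 18.8% to 81.2%). The SP1 core was found in 53.4% and 83.3% of these groups, with overlapping intervals (40.8% to 65.7% and 43.6% to 97.0%).

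**Figure D5:**
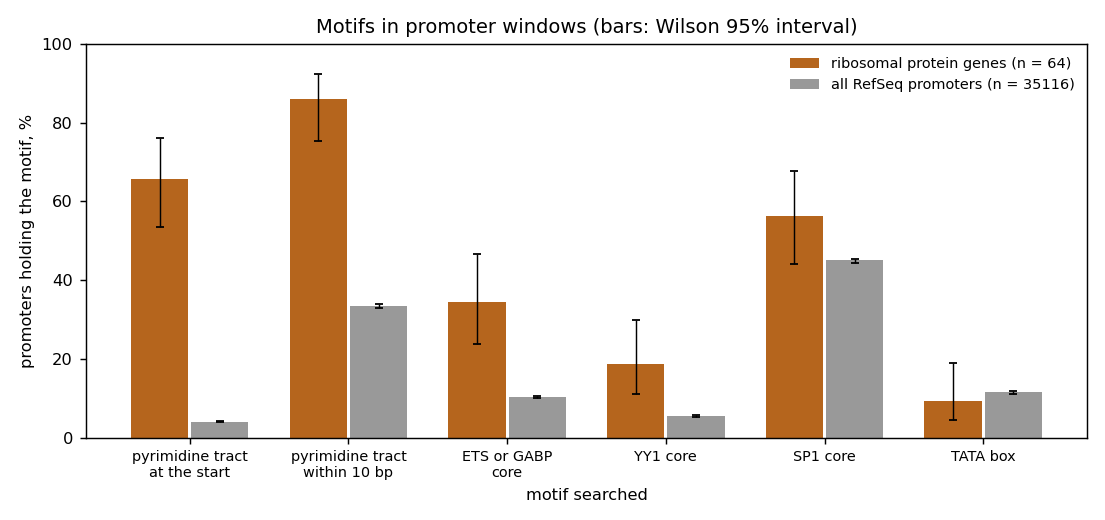
Share of RefSeq promoter windows, in percent, that held each motif (x axis), for 64 ribosomal protein genes and all 35116 promoters, with lines for Wilson 95% intervals. The pyrimidine tract and the ETS or GABP and YY1 cores stand higher in the ribosomal protein genes, and the lines of the SP1 core and TATA box reach the background.

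Peaks assigned to names of ribosomal protein pseudogenes, which are processed copies scattered over the genome, were not members. There were 117 of them at 55 names. They were 29 of 12852 peaks in the ARID1A list, 48 of 8728 in the ARID1B list and 40 of 12995 in the ARID2 list. Promoter peaks made up 72.6%, 37.9% and 67.0% of these lists, and the part of class in the counts was not tested.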

How the data were processed

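The values analysed were the peak lists that the authors deposited, 1 for each of ARID1A, ARID1B, ARID2 and SNF5. The authors aligned reads to hg19 with Bowtie2, merged the 2 replicates of each antibody and called broad peaks on the pooled alignments. Deposited boundaries and distances are in bp, and the deposited score (an integer set by the peak caller) was read from the SNF5 list only. The deposited chromatin state was not used, because overlapping ARID1A and ARID2 peaks carried the same state in 51.4% of 5618 pairs, beside 43.8% if the states were unrelated, while their class matched in 98.2%.

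Members were found by the nearest gene, which the authors took from an older Gencode release. Gene starts came from Gencode version 44 lifted to GRCh37 (the canonical transcript for distances), and promoter sequences from RefSeq on GRCh38.p14. Overlap required 1 bp, and peaks were also counted by position within 1000 bp of an annotated start. The overlap found here differed from the deposited single or multiple label at 0 of the 165 member peaks, and the deposited distance was within 3 bp of the distance from the midpoint in 59 of 77 ARID1A members, in 10 of 15 from ARID1B and in 49 of 73 from ARID2. The lists hold no read counts, so depth is unknown. Each list is 1 merged call set, so shares carry Wilson 95% intervals and no test was run. The members, gene groups and motifs were chosen with earlier results of these data known. Named genes were those with peaks in all 3 ARID lists, with at least 5 assigned peaks, with no ARID peak or no overlap with SNF5, with the widest, narrowest promoter or farthest peak or an extreme SNF5 score, and those listed for their known roles. Some of these genes are not reported here by name, though counts include them. Other genes named beside them were chosen after their values were seen. Alternatives were a reciprocal overlap of 50%, a gap of up to 1000 bp, the deposited label, SNF5 peaks above the median score of 19, joining of peaks up to 1000 bp apart, the widest 50% of peaks, distances of up to 500 or 5000 bp and members by position. Overlap functions were tested on simulated intervals. Python 3.11.15 with pandas 2.3.3, SciPy 1.17.1 and matplotlib 3.10.9 was used.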

Additional observations from a re-analysis of the deposited data

How the results depend on the processing

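Of 68 alternatives over 15 results, 44 stayed within the interval of the value (or within 1.5 times a count of genes) and 24 did not. A reciprocal overlap of 50%, counted for members only, lowered the share overlapping SNF5 in the ARID1A, ARID1B and ARID2 lists to 13.0%, 6.67% and 6.85%. It lowered the share overlapping another ARID to 22.1%, 33.3% and 20.5%. A gap of up to 1000 bp raised the share meeting SNF5 to 88.3% for ARID1A and 93.2% for ARID2, and the share meeting another ARID to 76.6% and 83.6%. SNF5 peaks above the median score overlapped 53.2% of ARID1A member peaks. Joining neighbouring peaks gave 82.1% overlap with SNF5 for ARID1A and a promoter share of 96.4% for ARID2. A distance of at most 5000 bp in place of the promoter class held 100%, 93.3% and 98.6% of ARID1A, ARID1B and ARID2 peaks, and members by position held 100%, 93.8% and 96.3%, which their construction fixes in large part. Keeping the widest 50% of peaks gave 76.3% overlap with SNF5 for ARID2, and left 36 genes with ARID1A, 8 with ARID1B, 3 with all ARIDs and 30 with none. No paired analysis was possible because both replicates were merged before peaks were called, and no replicate could be left out for the same reason. The absence of a peak has no limit of detection here.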
